A study of Mus musculus with 15 samples.

Results

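The transcripts described are the 33 genes of a list for the response to low oxygen and for glycolysis, the breakdown of glucose to pyruvate and lactate, out of 46679 genes in the deposited tables. All 33 symbols were found once in the tables by their Ensembl identifiers, and all 33 passed the filter on low counts. They comprise 4 genes of oxygen sensing, 12 targets of the hypoxia response, 2 transporters, 13 glycolytic enzymes and 2 enzymes that regulate glycolysis through fructose bisphosphate. The genes were chosen by name and not by a cut on their levels, but with earlier results of these data known. RNA was sequenced from naïve brain and from CT2A, GL261, 005 and Mut3 tumors at end-stage, with 15 C57BL/6 mice in all, 3 in each group. CT2A and GL261 came from tumors induced by methylcholanthrene. CT2A has wild-type p53, and GL261 carries mutations of K-ras and p53. The 005 line came from a tumor driven by activated H-ras and AKT in mice with a single intact copy of p53 (p53+/-), and Mut3 from mice with NF1 and p53 inactivated. Each tumor group was therefore 1 cell line in 3 mice, and every line also carried GFP and firefly luciferase. The mice were 6 to 8 weeks old when they received tumor cells in the brain, 500000 for Mut3 and 100000 for each of the other lines. An age or a sham injection for naïve brain was not given in the labels used here.

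Cells sense oxygen through prolyl hydroxylases (Egln genes), which mark the alpha subunits of hypoxia-inducible factor (HIF; Hif1a and Epas1) for degradation while oxygen is present. When oxygen falls, the subunits escape, bind a short DNA core in target genes and raise the transcription of glucose transporters, glycolytic enzymes, angiogenic factors and proteins that adjust acidity and collagen. Hif1a is itself controlled largely at the level of the protein, so that its mRNA is not a readout of HIF activity. Glioblastomas are known for hypoxic, necrotic regions and for the use of glycolysis in the presence of oxygen, whereas in the normal brain neurons and glia use different forms of several of these enzymes.

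The core that HIF binds is read as ACGTG or GCGTG, or as their complements CACGT and CACGC. It was searched on both strands of RefSeq promoter windows (GRCm38.p6) from 250 bases before to 50 bases after the start of transcription. A window was at hand for 29 of the 33 genes, and 27 of the 29 (93.1%) held the core, as did 64.4% of the 11916 genes tested for expression that had a window. A gene with several windows counted if any 1 of them held the core. By window, 78.6% of the 42 windows of the listed genes held it, beside 43.8% of all 32851 windows, of genes tested or not. Gpi1 and Tpi1 held none in these windows. Hits of the letters on both strands can overlap, as in CACGTG. A core in a window is a match of letters and was not measured as a bound site. The stretches upstream of the start, without any annotated exon, are shown for Hk2, the hexokinase that rose in all 4 tumors, and for Ldha, Ankrd37, Adm and P4ha1, which differed between tumors. Each is given 5′ to 3′ on the strand of the gene with the cores in capitals.
Hk2 (chr6:82774455-82774704, minus strand): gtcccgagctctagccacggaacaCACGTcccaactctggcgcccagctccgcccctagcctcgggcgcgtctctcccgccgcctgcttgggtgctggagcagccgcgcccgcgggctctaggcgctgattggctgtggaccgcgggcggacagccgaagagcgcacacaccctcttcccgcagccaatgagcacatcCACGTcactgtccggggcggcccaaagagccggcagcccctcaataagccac
Ldha (chr7:46845554-46845803, plus strand): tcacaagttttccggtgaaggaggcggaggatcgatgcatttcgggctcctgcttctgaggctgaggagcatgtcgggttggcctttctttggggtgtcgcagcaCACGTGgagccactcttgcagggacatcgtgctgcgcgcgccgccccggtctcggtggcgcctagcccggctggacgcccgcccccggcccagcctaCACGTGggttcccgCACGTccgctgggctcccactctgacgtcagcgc
Ankrd37 (chr8:45999868-46000100, minus strand): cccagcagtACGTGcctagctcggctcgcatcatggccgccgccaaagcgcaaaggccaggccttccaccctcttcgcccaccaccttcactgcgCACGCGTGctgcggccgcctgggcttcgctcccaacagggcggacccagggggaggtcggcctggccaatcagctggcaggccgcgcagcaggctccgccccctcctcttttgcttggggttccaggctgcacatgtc
Adm (chr7:110627407-110627656, plus strand): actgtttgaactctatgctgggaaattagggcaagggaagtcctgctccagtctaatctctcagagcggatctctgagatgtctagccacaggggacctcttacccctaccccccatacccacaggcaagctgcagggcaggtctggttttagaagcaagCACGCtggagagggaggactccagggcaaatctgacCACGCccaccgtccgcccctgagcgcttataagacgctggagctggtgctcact
P4ha1 (chr10:59323046-59323295, plus strand): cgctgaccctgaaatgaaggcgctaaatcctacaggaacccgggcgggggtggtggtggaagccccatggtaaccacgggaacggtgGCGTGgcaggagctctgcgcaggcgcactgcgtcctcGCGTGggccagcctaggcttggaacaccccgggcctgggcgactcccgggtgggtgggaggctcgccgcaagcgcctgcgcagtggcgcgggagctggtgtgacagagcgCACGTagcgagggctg
The Hk2 stretch held 2 matches and the Adm stretch 2. The P4ha1 stretch held 3, the Ankrd37 stretch 3 and the Ldha stretch 5, of which 2 pairs overlap as a palindrome. Other called genes with a window are not printed. Among those called lower in tumors, the stretch of Pfkp held 3 matches, that of Pgam1 3, those of Aldoa 1 each, and those of Hk1 and Pkm 0. Whole windows held 5 and 0 matches for Hk1 and 0 and 2 for Pkm, and a further Aldoa window held 0. The stretch of Car9, which rose, held 0, with 1 match in its whole window. A relation of the core to the direction of change was not tested.

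Levels of single genes are given as CPM, the estimated counts scaled to the size of the library and normalized between libraries by TMM. Sums of markers, pooled CPM and the floor of 3 counts are scaled to the size of the library only. TPM, which also accounts for the length of a gene, is used to compare genes within a sample and as an alternative scale. Genes were tested by the quasi-likelihood method of edgeR in 1 fit of the 15 samples, and a gene was called at a p under 0.05 after Benjamini-Hochberg adjustment over the 17481 genes tested. Total counts ranged from 3105119 to 13130158 and were lowest in naïve brain, and the level of 3 counts, a floor for counting error only, lay between 0.229 and 0.966 CPM. Of 7 neuron markers, the summed level was 4321 to 5215 CPM in naïve brain and 40.0 to 1548 CPM in 11 of the 12 tumors, but 3429 CPM in 005 replicate 3. The 5 proliferation markers summed to 28.7 to 53.6 CPM in naïve brain, 145 CPM in 005 replicate 3 and 662 to 2049 CPM in the other tumors. The share of mitochondrial transcripts was 14.97% to 24.0% for naïve brain, 17.8% for 005 replicate 3 and 3.48% to 11.3% for the other tumors, and their part in the results was not tested. 005 replicate 3 thus stood near naïve brain, and the calls in 005 against naïve brain are given with and without it. In tumor tissue, fewer cells of a type and less RNA per cell cannot be told apart.

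Compared with naïve brain, Car9 and Hk2 rose and Aldoa fell in all 4 tumors. The share of all tested genes called in 1 direction in all 4 tumors was not counted. The 4 comparisons share the same 3 naïve brains. Of the 33 genes, 15 were called in Mut3 (8 higher, 7 lower), 13 in CT2A (8 higher, 5 lower), 8 in GL261 (4 higher, 4 lower) and 5 in 005 (4 higher, 1 lower). The called share was 39.4% in CT2A against 42% of all tested genes, 24.2% in GL261 against 23.6%, 15.2% in 005 against 12.9%, and 45.5% in Mut3 against 40.3%, so the list as a whole was called about as often as other genes. By direction, 20.3% of all tested genes were called higher and 21.7% lower in CT2A, 15.1% and 8.45% in GL261, 11.8% and 1.13% in 005, and 19.3% and 21% in Mut3. Higher genes thus made up 91.2% of the calls over all genes in 005 and 64.1% in GL261, but 72.4% and 54.1% with DESeq2, and between 19.8% and 27.7% in each of the 4 lines with limma on log2(TPM + 1). The 33 genes had a median log2 fold change of -0.06 in 005, 0.02 in Mut3, 0.03 in GL261 and 0.53 in CT2A, beside 0.01, 0.11, -0.08 and -0.04 over all tested genes. In total, 21 of the 33 genes were called in at least 1 tumor, beside 59.7% of all tested genes. None was called higher in one tumor and lower in another, and 0.972% of all tested genes were. Without 005 replicate 3, the count in 005 was 9 (4 higher, 5 lower), or 27.3% where 37.9% of all tested genes were called. The count in 005 was 2 without 005 replicate 1 or 2 or naïve replicate 1 or 3, 3 without naïve replicate 2 or GL261 replicate 3, and 0 when only 005 and naïve brain were fitted in edgeR, where 4 genes had an unadjusted p under 0.05 (DESeq2 on all samples called 7). The count in CT2A was 8 without CT2A replicate 2 and 7 without CT2A replicate 3, and that in Mut3 was 8 without Mut3 replicate 2. In GL261 it was 4 without naïve replicate 1 or GL261 replicate 1 and 5 without naïve replicate 3 or GL261 replicate 3.

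**Figure D1:**
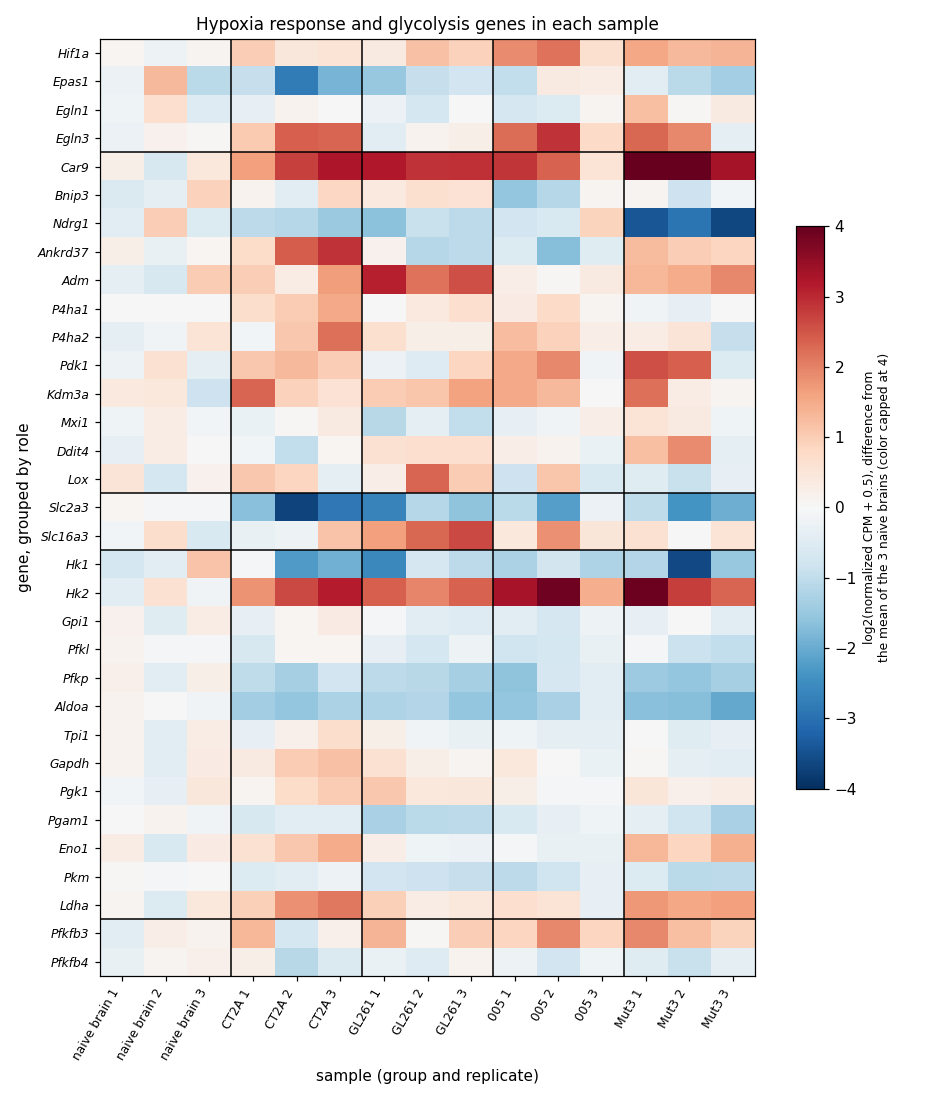
Level of each of the 33 genes (rows, grouped by role) in each of the 15 samples (columns), as log2(normalized CPM + 0.5) minus the mean of the 3 naïve brains. Car9 and Hk2 are red in the tumors and Aldoa is blue, and 005 replicate 3 is paler than the other two 005 tumors for Car9, Hk2 and Egln3.

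**Figure D2:**
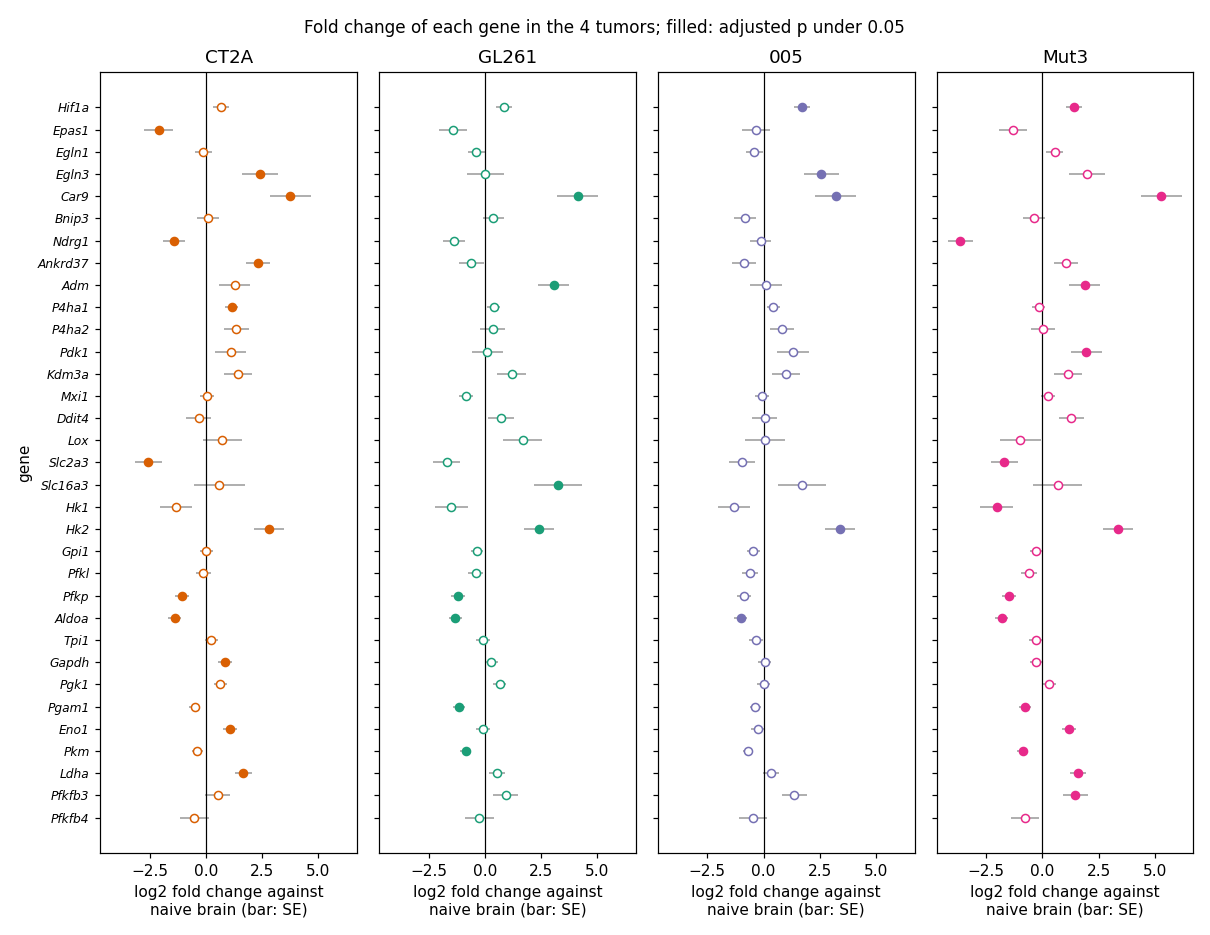
Log2 fold change of each gene against naïve brain in each tumor, with its standard error. Filled points have an adjusted p under 0.05 (15 in Mut3, 13 in CT2A, 8 in GL261 and 5 in 005).

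Among the genes of oxygen sensing, Hif1a, the alpha subunit of HIF-1, rose in 005 by 1.71 ± 0.36 on the log2 scale (SE, n = 3 per group, adjusted p = 0.00658) and in Mut3 by 1.41 ± 0.35 (adjusted p = 0.00635). Its level was 28.2 to 35.4 CPM in naïve brain, 80.3 to 96.3 CPM in Mut3, and 121 and 149 CPM in 005 replicates 1 and 2 but 51.4 CPM in replicate 3, without which the log2 fold change in 005 was 1.98 (adjusted p = 0.00018). In CT2A and GL261 it was 41.9 to 74.0 CPM, above all the naïve brains, with adjusted p of 0.131 and 0.0848. The TPM of Hif1a overlapped between these groups, at 1.49 to 1.92 in naïve brain, 1.09 to 1.94 in CT2A and 1.02 to 2.26 in GL261. The Hif1a calls in 005 and Mut3 were lost with limma on log2(TPM + 1), and the 005 call also with only the groups compared. Epas1, the HIF-2 alpha subunit, known for its expression in endothelial cells, was lower in CT2A (log2 fold change -2.10 ± 0.64, adjusted p = 0.0180). This call was lost without naïve replicate 2, CT2A replicate 2 or CT2A replicate 3 (adjusted p up to 0.221). Naïve replicate 2 held 42.6 CPM of Epas1 and the other two naïve brains 7.84 and 14.3 CPM. Its summed endothelial markers were also the highest of the group (300.2 against 151 and 155 CPM), and their part in the result was not tested.

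Egln3, a prolyl hydroxylase that is itself a HIF target, rose in CT2A (2.39 ± 0.79, adjusted p = 0.0263) and 005 (2.57 ± 0.79, adjusted p = 0.0458). It was at 1.02 to 1.495 CPM in naïve brain and 0.829 to 1.58 CPM in GL261, against 3.18, 8.85 and 8.40 CPM in the CT2A replicates 1 to 3 and 7.93, 12.8 and 2.49 CPM in those of 005. In Mut3 the log2 fold change of 1.99 had an adjusted p of 0.0569, and replicate 3 held 0.880 CPM where replicates 1 and 2 held 8.28 and 6.29. The CT2A call was lost without naïve replicate 1 or 3 or CT2A replicate 2 or 3 (adjusted p up to 0.0825), and the 005 call was lost in 9 of 15 omissions (up to 0.198). Those 9 were each naïve brain, CT2A replicate 3, GL261 replicates 2 and 3, 005 replicates 1 and 2, and Mut3 replicate 2. Without 005 replicate 3 the log2 fold change in 005 was 2.93 (adjusted p = 0.0076). Egln1, the main oxygen sensor of the family, was not called in any tumor, with log2 fold changes between -0.42 and 0.54.

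Of the hypoxia response targets, Car9 changed the most. It encodes carbonic anhydrase IX, which regulates pH at the surface of hypoxic cells (chr4:43506966-43513729, plus strand). It was at 0.408, 0 and 0.541 CPM in the naïve brains, at or below 2 counts in each. It was at 1.95, 4.66 and 6.85 CPM in the CT2A tumors, 6.63, 5.33 and 5.46 in GL261, 5.15, 3.50 and 0.641 in 005, and 20.0, 11.7 and 7.30 in Mut3. Every tumor lay above every naïve brain, and Mut3 held the highest levels. Since the naïve brains held 3.9 counts in all, the ratio of pooled CPM is given with a 95% exact interval for counting error. It was 40.3 (15.3 to 146) in Mut3, 18.0 (6.74 to 66.3) in GL261, 12.7 (4.74 to 46.8) in CT2A and 8.58 (3.17 to 31.6) in 005. The adjusted p was 0.000842 in Mut3, 0.00665 in GL261, 0.00613 in CT2A and 0.0332 in 005. The calls in CT2A, GL261 and Mut3 were kept with any 1 library left out. The call in 005 was lost without any 1 of the naïve brains, GL261 replicate 3, or 005 replicate 1 or 2 (adjusted p up to 0.127), and had an adjusted p of 0.00256 without 005 replicate 3. The 005 call was also lost with limma on log2(TPM + 1) and with the replicate number as a block. A filter of 10 counts in every sample removes the gene.

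Adm, which encodes the vasodilator peptide adrenomedullin (chr7:110627661-110629820, plus strand), rose most in GL261. It was at 0.408, 0.249 and 1.89 CPM in naïve brain and at 9.74, 4.85 and 6.55 CPM in GL261. The CT2A tumors held 1.83, 0.932 and 3.23 CPM, those of 005 0.927, 0.724 and 0.997, and those of Mut3 2.46, 2.77 and 3.96. GL261 lay above all the other samples. With 10.7 counts in all in naïve brain, the ratio of pooled CPM was 7.92 (4.16 to 15.8) in GL261 and 3.70 (1.92 to 7.47) in Mut3. The adjusted p was 0.00779 in GL261 and 0.0415 in Mut3. The call in Mut3 was lost in 9 of 15 omissions (adjusted p up to 0.146), namely those of naïve replicates 1 and 2, CT2A replicate 1, each GL261 tumor and each Mut3 tumor. Adm was higher in GL261 than in 005 by 2.96 ± 0.65 (adjusted p = 0.0246), which was lost without GL261 replicate 1 or 3 or 005 replicate 1 or 2 (up to 0.109).

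Ankrd37, a small ankyrin repeat protein gene used as a marker of HIF activity (chr8:45996902-46005707, minus strand), rose in CT2A. It was at 12.4, 8.47 and 11.1 CPM in naïve brain and at 17.8, 58.2 and 82.0 CPM in CT2A (2.30 ± 0.54, adjusted p = 0.00526). The Mut3 tumors held 26.1, 21.1 and 19.4 CPM, above all the naïve brains, with an adjusted p of 0.124. GL261 held 12.02, 4.53 and 4.85 CPM and 005 held 7.004, 2.90 and 7.48, so that CT2A lay above both lines without overlap. The exons of Ankrd37 overlap those of Ufsp2 on the other strand, whose counts summed to 323% of its own. As the strand of the counting is not stated, reads of the overlap cannot be assigned with certainty. Ufsp2 itself was not called between any pair of tumors (lowest adjusted p = 0.241). Against naïve brain, Ufsp2 was called lower in Mut3 (-0.84, adjusted p = 0.0429) and in no other line (lowest adjusted p = 0.192). The part of shared reads in the level of Ankrd37 was not tested.

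P4ha1, a catalytic subunit of collagen prolyl 4-hydroxylase (chr10:59323296-59373304, plus strand), rose in CT2A as well. The naïve brains held 20.4, 20.4 and 21.1 CPM, and the CT2A tumors 34.2, 41.9 and 60.5 CPM (1.14 ± 0.30, adjusted p = 0.00846). GL261 held 20.3, 27.5 and 33.5 CPM, 005 held 25.96, 35.4 and 22.5, and Mut3 held 18.6, 16.4 and 20.4. All CT2A tumors were above all naïve brains and all Mut3 tumors. Without CT2A replicate 3, the adjusted p against naïve brain was 0.0517. P4ha2, which encodes an alternative catalytic subunit, had a log2 fold change of 1.35 in CT2A with an adjusted p of 0.0592.

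Ndrg1 was the one called target of the hypoxia response that fell. It is induced by hypoxia in many cell types, and in brain it is abundant in oligodendrocytes (chr15:66929318-66969640, minus strand). It was at 30.2, 80.7 and 27.6 CPM in naïve brain, 19.7, 18.2 and 14.1 in CT2A, 12.9, 21.7 and 19.4 in GL261, 23.9, 26.4 and 75.5 in 005, and 3.36, 4.91 and 2.81 in Mut3. Ndrg1 fell in Mut3 (-3.64 ± 0.54, adjusted p = 0.000429) and CT2A (-1.42 ± 0.49, adjusted p = 0.0330), and every Mut3 tumor lay below every other sample. The CT2A call was lost without naïve replicate 2, any 1 of the CT2A tumors or Mut3 replicate 1 (adjusted p up to 0.360). The samples with the highest Ndrg1, naïve replicate 2 and 005 replicate 3, also had the highest sums of the 6 oligodendrocyte markers, 5316 and 4910 CPM against 182 to 1648 CPM in the other samples. In Mut3 these markers summed to 314 to 516 CPM and in CT2A to 182 to 1165 CPM. Their part in the result was not tested.

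Among the other targets, Pdk1, which limits the entry of pyruvate into the mitochondrion, rose in Mut3 (1.96 ± 0.70, adjusted p = 0.0368). Its Mut3 levels were 55.8 and 49.3 CPM in replicates 1 and 2 and 5.98 CPM in replicate 3, beside 6.76 to 13.95 CPM in naïve brain. The call was lost without naïve replicate 1 or 3 or Mut3 replicate 1 or 2 (adjusted p up to 0.131). Mxi1, which encodes an antagonist of Myc, and Lox, which encodes a collagen crosslinking enzyme, were called between GL261 and Mut3 but not against naïve brain. Mxi1 (chr19:53310518-53375810, plus strand) was at 25.1, 35.1 and 26.2 CPM in naïve brain, 23.5, 29.7 and 36.3 in CT2A, 13.1, 21.5 and 14.1 in GL261, 22.8, 25.8 and 34.0 in 005, and 42.0, 36.7 and 25.2 in Mut3. All GL261 values lay below all naïve and Mut3 values. Lox was at 1.84, 0.498 and 1.35 CPM in naïve brain, 2.93, 2.48 and 0.775 in CT2A, 1.45, 7.76 and 2.79 in GL261, 0.412, 3.02 and 0.570 in 005, and 0.671, 0.378 and 0.792 in Mut3. Several of the Lox values lay at or near the floor of 3 counts. Bnip3 and Ddit4, which act in mitophagy and in the restraint of mTORC1, and Kdm3a, a histone demethylase, were not called in any comparison. Kdm3a had log2 fold changes of 1.00 to 1.41 in the 4 tumors with a lowest adjusted p of 0.0846. Without 005 replicate 3, Bnip3 was lower in 005 (log2 fold change -1.58, adjusted p = 0.0180), at 27.6 and 36.6 CPM in the 2 remaining tumors against 55.3 to 157 CPM in naïve brain.

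Of the transporters, Slc2a3 was called lower in CT2A and Mut3, and Slc16a3 higher in GL261. Slc2a3 (GLUT3), the main glucose transporter of neurons, was at 60.8 to 66.7 CPM in naïve brain and fell in CT2A to 4.35 to 19.3 CPM (-2.56 ± 0.61, adjusted p = 0.00557) and in Mut3 to 11.7 to 31.1 CPM (-1.69 ± 0.59, adjusted p = 0.0337). The levels in GL261 were 9.53 to 27.96 CPM (adjusted p = 0.05 after rounding, just short of a call). In 005, replicates 1 and 2 held 29.7 and 13.2 CPM and replicate 3, with its high neuron markers, held 53.4 CPM. All tumors lay below all the naïve brains, as did the sum of the 7 neuron markers, whose part in the result was not tested. The Mut3 call was lost without any 1 naïve brain or without Mut3 replicate 2 or 3 (adjusted p up to 0.119). Slc16a3 (MCT4), which exports lactate, was at 0 to 0.747 CPM in naïve brain and at 1.87 to 4.25 CPM in GL261, a ratio of pooled CPM of 9.59 (3.84 to 39.1) on 4.3 counts in naïve brain (adjusted p = 0.0410). This call was lost in 6 of 15 omissions (naïve replicates 1 and 3, each GL261 tumor and Mut3 replicate 2, adjusted p up to 0.124). GL261 and 005 had the highest sums of the 8 microglia and macrophage markers, 472 to 727 and 432 to 1182 CPM, beside 160 to 181 in naïve brain, 245 to 322 in CT2A and 66.1 to 164 in Mut3. Their part in the level of Slc16a3 was not tested.

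At the first step of glycolysis, Hk2 was called higher in all 4 tumors and Hk1 lower in Mut3. Hk2, the inducible form that is prominent in tumors (chr6:82725025-82774454, minus strand), was at 1.43, 3.49 and 1.89 CPM in naïve brain. It rose to 8.67, 16.0 and 22.6 CPM in CT2A, 13.3, 9.70 and 13.0 in GL261, 25.4, 38.8 and 6.76 in 005, and 39.8, 17.6 and 12.7 in Mut3. All 12 tumors lay above all the naïve brains, and the log2 fold changes were 2.80 ± 0.66, 2.401 ± 0.65, 3.38 ± 0.67 and 3.36 ± 0.66, with adjusted p of 0.00522, 0.0189, 0.00485 and 0.00161. The GL261 call was lost without naïve replicate 1 or 3 or GL261 replicate 3 (adjusted p up to 0.0736). The calls in the other 3 lines were kept with any 1 library left out. The GL261 call was also lost with limma on log2(TPM + 1), and the 005 call with only the groups compared. A filter of 10 counts in every sample removes Hk2, which held 28.2 counts in all in naïve brain. The ratio of pooled CPM of Hk2 was 6.26 (4.28 to 9.62) in CT2A, 5.30 (3.59 to 8.19) in GL261, 9.11 (6.29 to 13.9) in 005 and 10.1 (6.97 to 15.4) in Mut3. Without 005 replicate 3, the log2 fold change in 005 was 3.75. Hk1, the constitutive form of brain, was at 30.8 to 111 CPM in naïve brain and 3.65 to 47.8 CPM in the tumors. It was called lower in Mut3 (-2.04 ± 0.74, adjusted p = 0.0395), a call that was lost in 6 of 15 omissions (naïve replicates 2 and 3, GL261 replicate 3 and each Mut3 tumor, adjusted p up to 0.218).

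Of the preparatory phase of glycolysis, Aldoa was called lower in all 4 tumors and Pfkp in CT2A, GL261 and Mut3. Aldoa, the muscle-type aldolase that most tissues use (chr7:126795234-126800751, minus strand), was at 1474, 1368 and 1212 CPM in naïve brain. It was at 518, 459 and 565 CPM in CT2A, 567, 595 and 462 in GL261, 464, 545 and 991 in 005, and 426, 411 and 324 in Mut3. No tumor reached the lowest naïve brain, and the highest tumor was 005 replicate 3. The log2 fold change of Aldoa was -1.80 ± 0.29 in Mut3 (adjusted p = 0.000582), -1.39 ± 0.29 in CT2A (0.00269), -1.32 ± 0.28 in GL261 (0.00576) and -1.02 ± 0.28 in 005 (0.0292). In 005 the call was lost without any 1 naïve brain or without 005 replicate 1 or 2 (adjusted p up to 0.150), and without replicate 3 it fell by 1.49 (0.000355). The Aldoa call in 005 was also lost without a filter on low counts, with only the groups compared and with the replicate number as a block. 005 replicate 3 also held the highest sum of neuron markers among the tumors, whose part in the result was not tested.

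Pfkp, the platelet-type phosphofructokinase (chr13:6579768-6648777, minus strand), was at 176, 111 and 181 CPM in naïve brain, 75.0, 60.9 and 89.1 in CT2A, 72.8, 70.2 and 59.8 in GL261, 49.4, 94.4 and 113 in 005, and 55.4, 51.6 and 60.4 in Mut3. CT2A, GL261 and Mut3 lay below all the naïve brains, while 005 replicate 3 was above the lowest of them. The log2 fold change was -1.06 ± 0.31 in CT2A (adjusted p = 0.0149), -1.21 ± 0.31 in GL261 (0.0145), -0.87 ± 0.31 in 005 (0.0770, and 0.0103 without 005 replicate 3) and -1.48 ± 0.31 in Mut3 (0.00230). The CT2A call was lost without naïve replicate 1 or 3 or CT2A replicate 2 (adjusted p up to 0.0935), and the GL261 call without naïve replicate 1 or GL261 replicate 1 (up to 0.0610). Exons of Pitrm1 on the other strand overlap Pfkp, with counts that summed to 58.9% of those of Pfkp. Pitrm1 rose in CT2A (3.01, adjusted p = 0.000953) and Mut3 (2.35, 0.00236). It was not called in GL261 (0.89, 0.178) or 005 (1.03, 0.158). The part of shared reads in the level of Pfkp was not tested. Gpi1, Pfkl and Tpi1, which act at the isomerase and phosphofructokinase steps, were not called in any comparison. Their log2 fold changes against naïve brain lay between -0.60 and 0.23.

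In the later steps, Eno1 and Ldha rose in CT2A and Mut3. Eno1, the ubiquitous enolase (chr4:150236721-150248879, plus strand), was at 1735, 937 and 1785 CPM in naïve brain. It was at 2157, 3025 and 4024 CPM in CT2A, 1726, 1256 and 1219 in GL261, 1359, 1164 and 1171 in 005, and 3582, 2616 and 3793 in Mut3. The CT2A and Mut3 tumors were above all the other samples, whereas GL261 and 005 lay within the range of naïve brain. The log2 fold change was 1.05 ± 0.31 in CT2A (adjusted p = 0.0160, and 0.0845 without CT2A replicate 3) and 1.16 ± 0.31 in Mut3 (0.00905, kept with any 1 library left out). The TPM of Eno1 overlapped between these groups, at 387 to 508 in naïve brain, 394 to 598 in CT2A and 476 to 667 in Mut3. Both calls were lost with limma on log2(TPM + 1).

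Ldha, the lactate dehydrogenase subunit that favors the reduction of pyruvate to lactate (chr7:46841475-46855627, plus strand), was likewise highest in CT2A and Mut3 by group mean, but lowest in naïve brain. The naïve brains held 578, 365 and 707 CPM and the CT2A tumors 1027, 1892 and 2310. GL261 held 1034, 648 and 715 CPM, 005 held 849, 777 and 418, and Mut3 held 1782, 1558 and 1647. All CT2A and Mut3 tumors lay above all the naïve brains, while CT2A replicate 1 was just below GL261 replicate 1. Ldha rose by 1.66 ± 0.37 in CT2A (adjusted p = 0.00381) and by 1.60 ± 0.37 in Mut3 (0.00372), and both calls were kept with any 1 library left out. In GL261 and 005 the log2 fold changes were 0.54 and 0.31, with adjusted p of 0.270 and 0.566.

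Gapdh, often used as a reference gene (chr6:125161715-125166467, minus strand), was at 2429, 1603 and 2732 CPM in naïve brain, 2838, 4440 and 4959 in CT2A, 3322, 2585 and 2382 in GL261, 2953, 2189 and 1823 in 005, and 2285, 1709 and 1619 in Mut3. It was higher in CT2A by 0.86 ± 0.30 (adjusted p = 0.0359), but on the TPM scale, which carries a different factor per sample, the same contrast was -0.13 (limma, adjusted p = 0.550). The call was lost without naïve replicate 1 or 2 or CT2A replicate 2 or 3 (up to 0.137). Processed copies of Gapdh, 153 in number, held 3.78% of the reads of Gapdh and its copies. Pgk1, the first enzyme of the payoff phase to yield ATP, was not called. However, 34.6% of the reads of Pgk1 and its copies were assigned to the retrogene Pgk1-rs7 (15.2% to 43.4% by sample). When the copies were added, Pgk1 was called higher in CT2A (1.02, adjusted p = 0.0167) and GL261 (0.90, adjusted p = 0.0473). Pgam1 was lower in GL261 (-1.15 ± 0.26, adjusted p = 0.00736, and 0.0551 without GL261 replicate 1) and Mut3 (-0.77 ± 0.26, 0.0270). Pkm, whose M1 and M2 isoforms cannot be separated in counts per gene, was lower in GL261 (-0.84 ± 0.24, 0.0253) and Mut3 (-0.87 ± 0.24, 0.0115, and 0.0547 without Mut3 replicate 2). The Pgam1 call in Mut3 was lost without naïve replicate 1 or 2 or Mut3 replicate 2 or 3 (up to 0.125). The Pkm call in GL261 was lost in 8 of 15 omissions (up to 0.107), those of each naïve brain, each GL261 tumor, CT2A replicate 2 and Mut3 replicate 3.

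Pfkfb3 and Pfkfb4 make and remove fructose 2,6-bisphosphate, the activator of phosphofructokinase. Pfkfb3 was called higher in Mut3 (1.46 ± 0.56, adjusted p = 0.0496), at 10.4 to 21.6 CPM against 3.88 to 6.48 CPM in naïve brain. The call was lost in 10 of 15 omissions (adjusted p up to 0.169), those of each naïve brain, each Mut3 tumor, CT2A replicate 3, GL261 replicates 1 and 3, and 005 replicate 1. Pfkfb4 stayed below 2 CPM in every sample.

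**Figure D3:**
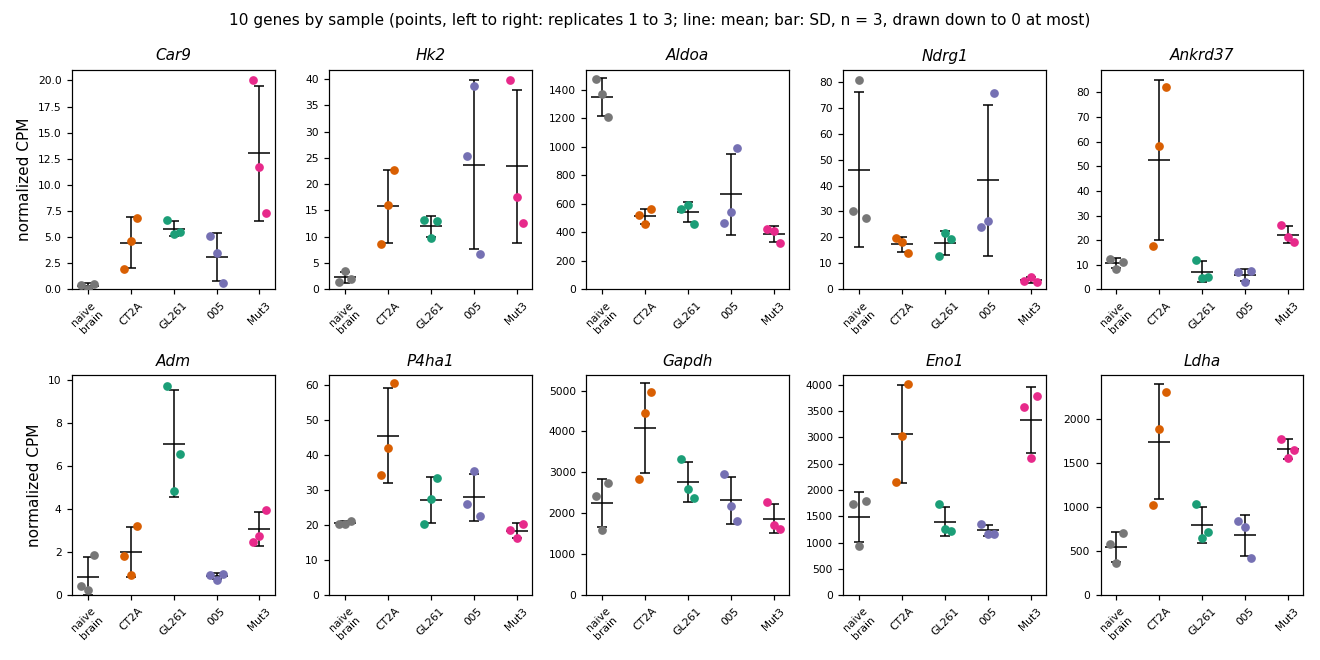
Normalized CPM of 10 of the genes in each sample (points), with the mean and SD of the 3 samples of a group (line and bar). Ankrd37 and P4ha1 have their highest mean in CT2A and Adm in GL261, Eno1 and Ldha are high in CT2A and Mut3, and Ndrg1 is lowest in Mut3.

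When tumors were compared with each other, 7 of the 33 genes differed among the 4 lines (Ndrg1, Ankrd37, Adm, P4ha1, Gapdh, Eno1 and Ldha), where 26.8% of all tested genes did. By pairs of lines, 2 genes were called between CT2A and GL261 (7.96% of all tested genes were), 3 between CT2A and 005 (4.16%), 3 between CT2A and Mut3 (13.2%), 1 between GL261 and 005 (2.63%), 5 between GL261 and Mut3 (18%) and 5 between 005 and Mut3 (20.7%). These 19 calls fell on 10 genes, 7 of the 12 hypoxia response targets and 3 of the 13 glycolytic enzymes. The share of all tested genes called in at least 1 pair of lines was not counted. None of the 4 genes of oxygen sensing, 2 transporters and 2 fructose bisphosphate regulators was called between tumors. Groups of this size allow no comparison by role.

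CT2A was the higher line in each of its 8 calls. These fell on Ankrd37, Eno1, Ldha, Ndrg1, P4ha1 and Gapdh, and all share the same 3 CT2A tumors. Of all tested genes, 4.26% were called higher in CT2A than in GL261, 2.15% higher than in 005 and 6.82% higher than in Mut3. Higher genes made up 53.4% of the calls over all genes for CT2A against GL261, 51.5% against 005 and 51.6% against Mut3. Ankrd37 in CT2A exceeded that in GL261 by 2.90 ± 0.55 (adjusted p = 0.00589) and that in 005 by 3.17 ± 0.56 (0.00746), and both calls were kept with any 1 library left out. For Eno1 the difference was 1.13 ± 0.31 between CT2A and GL261 (0.0385) and 1.32 ± 0.31 between CT2A and 005 (0.0321). The former call was lost without naïve replicate 1, CT2A replicate 2 or 3, any 1 GL261 tumor, or Mut3 replicate 1 or 3 (up to 0.176). The latter was lost without CT2A replicate 2 or 3, GL261 replicate 2, or 005 replicate 1 or 2 (up to 0.160). Ldha was higher in CT2A than in 005 by 1.36 ± 0.36 with an adjusted p of 0.0497, a call kept in 2 of 15 omissions (naïve replicate 2 and CT2A replicate 1) and lost in the other 13 (up to 0.209). P4ha1 and Gapdh were higher in CT2A than in Mut3 by 1.30 ± 0.30 (0.00966) and 1.12 ± 0.31 (0.0257). The P4ha1 call was lost without CT2A replicate 3 (0.0585), and the Gapdh call without CT2A replicate 2 or 3 or Mut3 replicate 2 or 3 (up to 0.106).

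Mut3 had lower Ndrg1 than each of the other lines, and higher Eno1 than GL261 and 005. Ndrg1 was lower in Mut3 than in CT2A by a log2 fold change of 2.23 ± 0.52 (adjusted p = 0.0110), than in GL261 by 2.29 ± 0.52 (0.00985) and than in 005 by 3.51 ± 0.54 (0.00120), and these 3 calls were kept with any 1 library left out. Eno1 differed by -1.25 ± 0.31 in GL261 against Mut3 (0.0155) and -1.44 ± 0.31 in 005 against Mut3 (0.00742), of which the latter was kept with any 1 library left out. The former was lost without GL261 replicate 2 or Mut3 replicate 1 or 3 (up to 0.0802). Between CT2A and Mut3 the difference of Eno1 was -0.12 ± 0.31 and that of Ldha 0.07 ± 0.36. Ldha was lower in 005 than in Mut3 (-1.29 ± 0.36, 0.0227), which was lost without Mut3 replicate 1 or 3 (up to 0.0845).

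Ankrd37 was lower in GL261 (-1.65 ± 0.53, 0.0457) and in 005 (-1.93 ± 0.53, 0.0212) than in Mut3. The GL261 call was lost in 9 of 15 omissions (up to 0.156), those of naïve replicates 1 and 3, CT2A replicate 2, GL261 replicates 2 and 3, 005 replicate 1 and each Mut3 tumor, and the 005 call without 005 replicate 2 or Mut3 replicate 1 (up to 0.0711). Mxi1 was lower in GL261 than in Mut3 (-1.09 ± 0.31, 0.0276) and Lox was higher (2.66 ± 0.88, 0.0499), and these were lost in 5 (up to 0.138) and 11 (up to 0.238) of 15 omissions. For Mxi1 these were CT2A replicate 2, GL261 replicates 1 and 3, and Mut3 replicates 1 and 2, and the Lox call was kept without GL261 replicate 1 or any 1 of the 005 tumors. Car9 was lower in 005 than in Mut3 (-2.08 ± 0.69, 0.0459), which was kept without naïve replicate 2, CT2A replicate 1 or 005 replicate 1 and lost in the other 12 omissions (up to 0.200), including that of 005 replicate 3 (0.0819). When 005 replicate 3 was left out, Hif1a was called higher in 005 than in CT2A (1.34 apart, adjusted p = 0.0148) and than in GL261 (1.20 apart, 0.0209).

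The spread between mice of a line was wide for several genes. The median log2 range (highest over lowest of 3 mice, with 0.5 CPM added) of the 33 genes was 1.05 in CT2A, 0.66 in GL261, 1.02 in 005, 0.71 in Mut3 and 0.77 in naïve brain, beside 0.70, 0.76, 1.16, 0.74 and 0.93 over all tested genes. In Mut3, 5 genes spanned more than 4-fold (Pdk1, Egln3, Hk1, Ddit4 and Kdm3a), where 5.88% of all tested genes did. In CT2A, 5 did (P4ha2, Hk1, Ankrd37, Slc2a3 and Pfkfb3), beside 7.65% of all. In 005, 4 did (Hk2, Car9, Egln3 and Pdk1), beside 22.3% of all, in GL261 1 did (Lox), beside 7.45%, and in naïve brain 1 did (Epas1), beside 9.75%. Of the 16 genes of oxygen sensing and hypoxia response, 10 had their lowest Mut3 level in replicate 3, as did 33.4% of all tested genes, and 10 had their lowest GL261 level in replicate 1, as did 38.6% of all. Mut3 replicate 3 was low for Pdk1 (8.69-fold range), Egln3 (6.36-fold) and Ddit4 (4.71-fold, with 2.20 CPM against 7.38 and 12.2), but not for Ldha or Eno1. In CT2A, replicate 1 was lowest for 7 of the 16 genes (Egln1, Egln3, Car9, Ankrd37, P4ha1, P4ha2 and Mxi1), as it was for 37.3% of all tested genes, and also for Hk2, Eno1 and Ldha. It was the highest of the 3 for Hif1a, Epas1, Ndrg1, Kdm3a, Lox, Slc2a3, Hk1, Pfkfb3 and Pfkfb4. Its neuron markers summed to 930 CPM, beside 151 and 167 CPM in the other two. The 5 red blood cell markers summed to 467, 1055 and 2130 CPM in CT2A replicates 1 to 3, in the same order as Ankrd37, P4ha1, Eno1 and Ldha. Car9, P4ha2, Mxi1, Slc16a3, Hk2, Gpi1, Pfkl, Tpi1, Gapdh, Pgk1, Pgam1 and Pkm had this order too. The share of all tested genes in this order was not counted. The part of either list of markers in the levels of these genes was not tested.

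Within samples, the balance between related genes was set by TPM and is given as a description. The ratio of Hk2 to Hk1 was 0.0276 to 0.145 in naïve brain and 0.289 to 7.64 in the tumors, so that all 12 tumors lay above naïve brain. The ratio of Ldha to Ldhb, the subunit that favors the use of lactate, was 0.0944 to 0.113 in naïve brain, 0.694 to 2.48 in CT2A, 0.189 to 0.354 in GL261 and 0.472 to 0.728 in Mut3. In 005 it was 0.474 and 0.766 in replicates 1 and 2 and 0.0814 in replicate 3, the one tumor below naïve brain. Eno1 exceeded the neuronal enolase Eno2 by 2.73 to 5.14 times in naïve brain and by 251 to 745 times in Mut3, with 32.2 to 230.1 in CT2A, 9.70 to 26.3 in GL261 and 4.90 to 60.3 in 005. Slc2a3 and Slc2a1 (GLUT1, the transporter of the blood-brain barrier and of many tumors) had a ratio of 0.892 to 3.03 in naïve brain and 0.0908 to 0.846 in the tumors, all below naïve brain. Hif1a exceeded Epas1 by 3.83 to 13.3 times in CT2A, GL261 and Mut3, by 1.48 to 8.76 times in 005, and stood at 0.400 to 2.75 times in naïve brain. The ratio of Aldoa to Aldoc, the brain aldolase, was 0.570 to 1.09 in naïve brain, 1.03 to 3.10 in CT2A, 0.578 to 3.39 in 005, 0.414 to 0.742 in GL261 and 0.295 to 0.802 in Mut3, and each of the 4 lines overlapped with naïve brain.

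**Figure D4:**
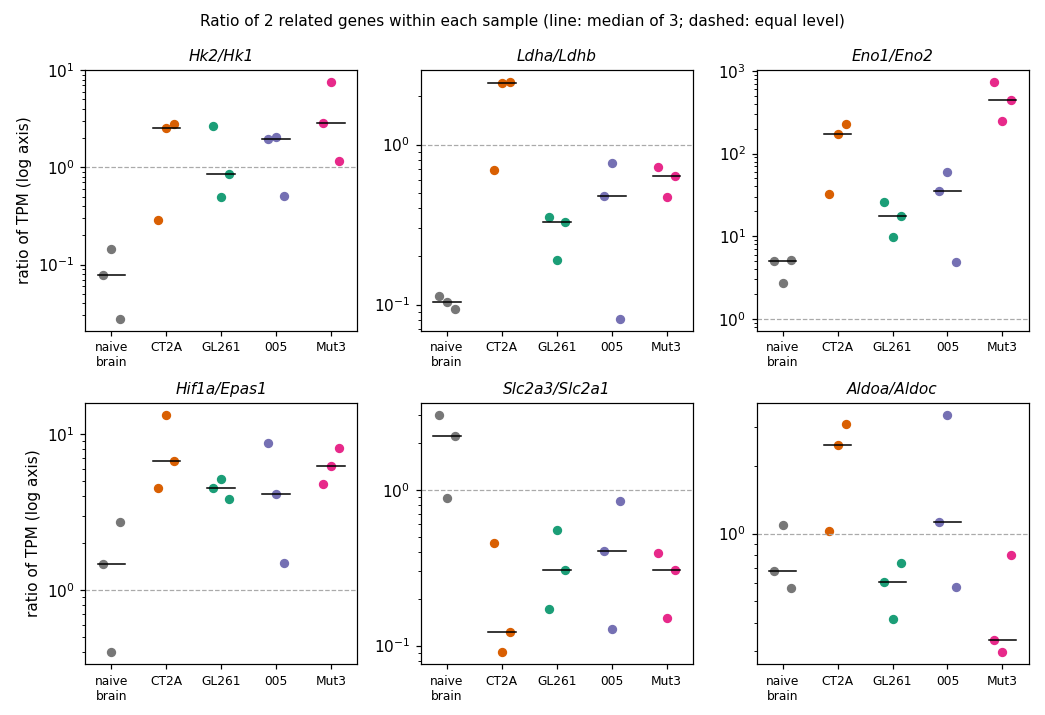
Ratio of the TPM of a gene to that of a related gene in each sample (points, log axis), with the median of each group. Hk2/Hk1 is higher and Slc2a3/Slc2a1 lower in all 12 tumors than in naïve brain, and Ldha/Ldhb exceeds 1 in 2 of the CT2A tumors.

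Other ratios concern the enzymes that act on the HIF subunits and on pyruvate. Egln1 stood at 0.351 to 0.481 times Egln2 in naïve brain and at 1.11 to 2.17 times in Mut3, and at 0.409 to 1.53 times in the other tumors. Egln1 exceeded Egln3 by 19.9 to 38.8 times in naïve brain and by 1.90 to 15.3 times in CT2A and 005. In GL261 it did so by 15.3 to 36.8 times, and in Mut3 by 9.91, 5.82 and 54.3 times in replicates 1 to 3. Pdk1 was at 0.0863 to 0.116 times Pdk2, the isoform of normal brain, in naïve brain and at 0.813 to 2.22 times in CT2A. It was at 0.108 to 0.549 times in GL261 and at 1.94, 3.74 and 0.109 times in the 005 replicates 1 to 3, so that GL261 replicate 2 and 005 replicate 3 lay within the range of naïve brain. In Mut3 it was at 2.79 and 3.04 times in replicates 1 and 2 and 0.339 times in replicate 3. Slc16a3 was at 0.698 to 1.16 times Slc16a1, the more widely expressed lactate transporter, in GL261 and at most 0.269 times in all other samples.

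Of 28 other genes of the hypoxia response that were tested, 9 were called higher and 3 lower in CT2A, 4 and 0 in GL261, 6 and 1 in 005, and 11 and 2 in Mut3. The called share was 42.9% in CT2A (42% of all tested genes), 14.3% in GL261 (23.6%), 25% in 005 (12.9%) and 46.4% in Mut3 (40.3%). Their median log2 fold change was 0.59, 0.19, 0.16 and 0.56 in this order of lines. When 005 replicate 3 was left out, 7 were called higher and 3 lower in 005 (34.5% of 29 tested, beside 37.9% of all genes), with a median of 0.09. Those called higher in all 4 tumors were Plin2, which coats lipid droplets, P4hb, the partner subunit of P4ha1, Plod2, a collagen lysyl hydroxylase, and Anln, a protein of the cell division furrow that also serves oligodendrocyte myelin. Plod2 was at 2.70 to 4.69 CPM in naïve brain, 103 to 120.2 in CT2A, 59.3 to 105 in GL261, 58.9 to 88.2 in Mut3, and 71.4, 95.01 and 12.6 in 005. Its log2 fold changes lay between 4.02 and 4.92. Plin2 rose by 2.91 to 3.41, P4hb by 1.71 to 2.18 and Anln by 1.24 to 2.56. None of Plin2, P4hb and Plod2 was called among the 4 tumors (lowest adjusted p = 0.450).

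Of 30 other genes of glucose and lactate metabolism, 3 were called higher and 14 lower in CT2A, 3 and 2 in GL261, 3 and 0 in 005, and 4 and 9 in Mut3, with median log2 fold changes of -1.13, -0.56, -0.62 and -0.75. The called share was 56.7% in CT2A (42% of all tested genes), 16.7% in GL261 (23.6%), 10% in 005 (12.9%) and 43.3% in Mut3 (40.3%). With the same sample left out, 4 were called higher and 15 lower in 005 (63.3%, beside 37.9% of all genes), with a median of -1.26. G6pdx, which opens the pentose phosphate pathway, was called higher in all 4 tumors (1.179 to 2.14). The 5 genes of both lists with the smallest p among the 4 tumors were Fbp2, Fbp1, Eno3, Errfi1 and Loxl2. Fbp1 and Fbp2 encode fructose bisphosphatases, which run the phosphofructokinase step in reverse. Fbp2 was at 124, 66.7 and 49.7 CPM in Mut3 and at most 1.04 CPM in every other sample, and Fbp1 was at 27.5, 20.9 and 17.4 CPM in Mut3 and at most 0.855 CPM elsewhere. The adjusted p among tumors was 3e-07 for Fbp2 and 2.91e-05 for Fbp1. Eno3, the muscle enolase, was at 98.5 to 113 CPM in Mut3 and 60.2 to 95.3 in GL261, against 13.9 to 26.9 in CT2A, 3.28 to 16.8 in 005 and 1.99 to 4.49 in naïve brain. Errfi1, an inhibitor of the EGF receptor, and Loxl2, a relative of Lox, were highest in CT2A, at 53.0 to 63.7 and 44.6 to 69.2 CPM.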

How the data were processed

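RNA from naïve brain and from CT2A, GL261, 005 and Mut3 tumors was sequenced in 15 C57BL/6 mice. The authors aligned the reads with STAR v2.4.2a to the GENCODE mouse genome, and the submitters' processing notes also name Salmon, DESeq2 1.18.1 and mm10. The authors deposited estimated counts and TPM for each gene, and the strand setting and annotation release are not given in the sources used here. Count and TPM are tied by constants for each gene and each sample, so the tables are not independent.

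Samples were grouped by the labels, which name no sequencing batch. Estimated counts were rounded, filtered with filterByExpr, normalized by TMM and compared by the quasi-likelihood test of edgeR 4.0.16 (R 4.3.3), with a mean per group. Levels of low genes were compared as pooled CPM with 95% exact intervals that cover counting error only. Copies were found with blastn 2.17.0 (at least 90% identity over 50% of the transcript) and overlaps and positions from GENCODE M21 (GRCm38), with which 46201 of 46679 identifiers matched. The steps were tested on simulated counts. Alternatives were DESeq2 1.42.0, library size, other filters, the groups compared alone, a replicate block, limma 3.58.1 on log2(TPM + 1), a fold threshold, copies added and each library left out. Leaving out 005 replicate 3 with GL261 replicate 2, TPM brought to the TMM scale, and copies found by alignment were chosen after seeing the data.

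The members and lists were chosen with earlier results of these data known. Values by sample are given for genes called in at least 3 tumors in 1 direction or between any 2 tumors, and other genes by ranges. Of the other pathway genes, those called in all 4 tumors and the 5 with the smallest p among tumors are named. For these too, no share of all tested genes called in all 4 tumors was counted. Of 64 such genes listed, 62 were in the tables and 58 were tested. Part of the genotype of the lines is not reported here.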

Additional observations from a re-analysis of the deposited data

Results flagged for a closer look

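The contrast with naïve brain differed between lines for 10 genes, in that a test of the difference between 2 lines had an adjusted p under 0.05. The values are log2 fold changes of the first line against the second. For CT2A against GL261 they were 2.90 for Ankrd37 and 1.13 for Eno1. For CT2A against 005 they were 3.17 for Ankrd37, 1.32 for Eno1 and 1.36 for Ldha. For CT2A against Mut3 they were 2.23 for Ndrg1, 1.30 for P4ha1 and 1.12 for Gapdh. For GL261 against 005 the value was 2.96 for Adm. For GL261 against Mut3 they were 2.29 for Ndrg1, -1.65 for Ankrd37, -1.09 for Mxi1, 2.66 for Lox and -1.25 for Eno1. For 005 against Mut3 they were -2.08 for Car9, 3.51 for Ndrg1, -1.93 for Ankrd37, -1.44 for Eno1 and -1.29 for Ldha. With any 1 library left out, 6 of these 19 calls were kept: Ankrd37 in CT2A against GL261 and 005, Ndrg1 in the 3 comparisons with Mut3, and Eno1 in 005 against Mut3. Groups of 3 were not tested for outlying samples.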

How the results depend on the processing

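Among the 330 fold changes of the 33 genes in 10 comparisons, a direction reversed on 5, all with limma on log2(TPM + 1): Gpi1 (-0.95) and Tpi1 (-0.78) in CT2A, and Gapdh in CT2A (-0.13), GL261 (-0.50) and 005 (-0.55), each against naïve brain. This setting moved the median of all genes to between -0.38 and -0.23, and none of the 5 reversed when TPM was brought to the TMM scale. With limma on log2(TPM + 1), 18 calls were lost and 35 gained, and on the TMM scale 7 were lost and 7 gained. Calls against naïve brain lost with log2(TPM + 1) included Egln3, Ankrd37, P4ha1, Gapdh and Eno1 in CT2A and Hk2 in GL261. They also included Hif1a, Egln3 and Car9 in 005, and Hif1a, Adm, Pdk1, Eno1 and Pfkfb3 in Mut3. The Car9 call in 005 was lost as well with TPM on the TMM scale and with the replicate number as a block. The Aldoa call in 005 was lost with that block and without a filter on low counts. With 1 library left out in turn, the genes called against naïve brain ranged from 7 to 15 in CT2A, 4 to 12 in GL261, 2 to 9 in 005 and 8 to 16 in Mut3. Between lines they ranged from 1 to 4 for CT2A and GL261, 1 to 3 for CT2A and 005, 1 to 5 for CT2A and Mut3, 0 to 4 for GL261 and 005 (0 without GL261 replicate 1 or 3 or 005 replicate 1 or 2, where 5 to 8 genes had an unadjusted p under 0.05 in edgeR), 1 to 8 for GL261 and Mut3, 2 to 7 for 005 and Mut3, and 4 to 11 among the 4 lines. DESeq2 called 7 genes for CT2A and GL261, 3 for GL261 and 005, 9 for GL261 and Mut3, 8 for 005 and Mut3 and 13 among the 4 lines. With only the groups compared in the fit, edgeR called 0 in 005 against naïve brain, 5 for CT2A and GL261, 0 for CT2A and 005, 0 for GL261 and 005 and 2 for 005 and Mut3. At an unadjusted p under 0.05 the counts of 0 became 4, 6 and 5. A filter of 10 counts in every sample left 25 genes and 2 calls in 005 and 0 for GL261 and 005 (6 unadjusted). limma on log2(TPM + 1) called 17 in GL261 and 11 in 005 against naïve brain and 5 for CT2A and GL261, and 4 for the latter on the TMM scale. Without 005 replicate 3 and GL261 replicate 2, the counts were 9 in 005, 2 for GL261 and 005 and 3 for GL261 and Mut3. The replicate numbers are shared between groups, but the samples are different mice and their deviations correlated from -0.331 to 0.262 and 2 of 15 samples correlated best with their own number, so the samples were not taken as paired. With the replicate number as a block, 13 calls were lost and 0 gained, and 2 genes were called in 005 against naïve brain, 1 for CT2A and GL261 and 3 for GL261 and Mut3. The causes of these changes were not tested. The 3105119 to 5161132 counts in naïve brain limit what can be measured there of Egln3, Car9, Adm, Lox, Slc16a3, Hk2 and Pfkfb4.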
